A study of Saccharomyces cerevisiae with 36 samples.

Results

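DED1 (YOR204W) and DBP1 (YPL119C) are paralogous genes of budding yeast that encode DEAD-box RNA helicases, and their transcripts were followed through every library of a heat shock experiment. Both were picked by locus tag from a count table, so they are 2 of 6697 genes measured. The rule uses no expression value, though the pair was picked with earlier results of these data known. The 2 strains have a W303 Ade+ background. In the strain called IDRm here the helicase is the allele labelled Ded1_IDRm with an mCherry tag. In the strain called WT it is Ded1 with the same mCherry tag. All groups thus carry a tagged helicase, and no untagged strain was compared. Cultures grown at 30 °C spent 10 min at 30, 40 or 42 °C before harvest. RNA was read as total RNA, as RNA of the insoluble pellet and as RNA left soluble, which gives 18 groups with 2 libraries each. The protocols in the labels have 2 starting cultures per strain, each divided over the 3 temperatures, so libraries of 1 strain at different temperatures and fractions share their cultures.

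Ded1 is an essential helicase that helps the small ribosomal subunit to load on mRNAs and to scan their leaders, above all leaders that fold into stable structures. It is also known to gather into condensates in heat-stressed yeast, and its intrinsically disordered flanks lie on either side of the helicase core. Dbp1 is the non-essential relative, and extra copies of its gene can relieve the growth defect of ded1 mutants.

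DED1 lies on chromosome XV, 722911 to 724725 on the plus strand of the R64 genome, and DBP1 on chromosome XVI, 324411 to 326264 on the minus strand. Each is a single coding exon, of 1815 and 1854 bases. The 2 predicted proteins, of 604 and 617 residues, shared 436 of 584 aligned residues (74.7%). Identity was lowest at the flanks, with 55.8% and 52.1% in the first pair of 50-residue windows of Ded1, against 92.0% between residues 451 and 500. At the level of bases the aligned codons were 68.7% identical, and none of the 1835 windows of 20 bases in the DBP1 coding sequence occurred in that of DED1. The longest run that both coding sequences shared was 15 bases. The stretches below, 90 bases from each gene around the codons of the D-E-A-D motif (residue 306 of Ded1 and 318 of Dbp1), belong to the best conserved core and show how far apart the transcripts are even there. Capitals mark the 18 bases that differ, and both stretches were read 5′ to 3′ from the R64 genome (XV, 723787 to 723876, plus strand, and XVI, 325263 to 325352, minus strand).
DED1: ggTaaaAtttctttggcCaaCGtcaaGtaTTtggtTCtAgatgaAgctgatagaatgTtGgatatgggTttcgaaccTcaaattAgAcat
DBP1: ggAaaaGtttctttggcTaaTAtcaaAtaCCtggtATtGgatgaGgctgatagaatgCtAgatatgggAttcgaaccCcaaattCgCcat
With no longer run in common, an exact match of over 15 bases within the coding sequences can belong to only one of the paralogs. The sequence of the Ded1_IDRm allele was not used here, and whether some of its reads failed to align to R64 was not tested.

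Library totals ran from 4934241 to 13730247 counts. DED1 was covered by 6854 to 23280 counts per library and DBP1 by 46 to 793, so that counting error is small for DED1 and sizeable for DBP1. The heat labels were checked with HSP104, which dissolves protein aggregates, and SSA4, a heat-inducible Hsp70. HSP104 stood at 20599 and 19749 CPM in IDRm total RNA at 40 °C, against 598 and 551 CPM at 30 °C. In WT total RNA it stood at 22178 and 22158 CPM at 40 °C, against 607 and 739 CPM at 30 °C. SSA4 behaved alike in direction, with log2 differences of 7.46 ± 0.27 in IDRm and 6.45 ± 0.25 in WT. A pair of libraries stood apart from their partners. WT 42 °C soluble replicate 2 had the lowest total and 0.151% of its counts on mitochondrially encoded genes, against 0.757% in replicate 1. WT 30 °C total replicate 1 had 1.14% on those genes, against 1.72% in replicate 2. Leaving out WT 30 °C total replicate 1 cut the genes called for strain in total RNA at 30 °C to 386, against 787 with it. Values without these 2 libraries stand beside the differences that they change in call, in sign or by over 1.5 times. At 30 °C the WT libraries numbered 2 held more of both heat shock transcripts than those numbered 1, most of all in soluble RNA, where SSA4 stood at 1151 CPM in replicate 2 and 240 CPM in replicate 1. HSP104 stood at 1551 and 740 CPM in the same 2 libraries. In the WT pellets at 30 °C SSA4 stood at 605 CPM in replicate 2 and 190 CPM in replicate 1, and in WT total RNA at 424 and 250 CPM. The part of this difference in the WT temperature effects was not tested apart from leaving those libraries out.

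Levels are CPM, the counts of a gene relative to all counts of its library, scaled by TMM factors, which make libraries comparable on the assumption that most transcripts keep their share. Total RNA was scaled and tested apart from the fractions, so levels are compared within each of these sets. Exceptions, given below with their scaling, are the pellet shares and the correlations over all 36 libraries. Differences are log2 values ± the standard error of the fit. A gene was called in a comparison when its Benjamini-Hochberg adjusted p over all genes tested was under 0.05 in the edgeR quasi-likelihood test. All values are shares of the mRNA in a library, and fewer cells with a transcript cannot be told apart from less transcript per cell.

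**Figure D1:**
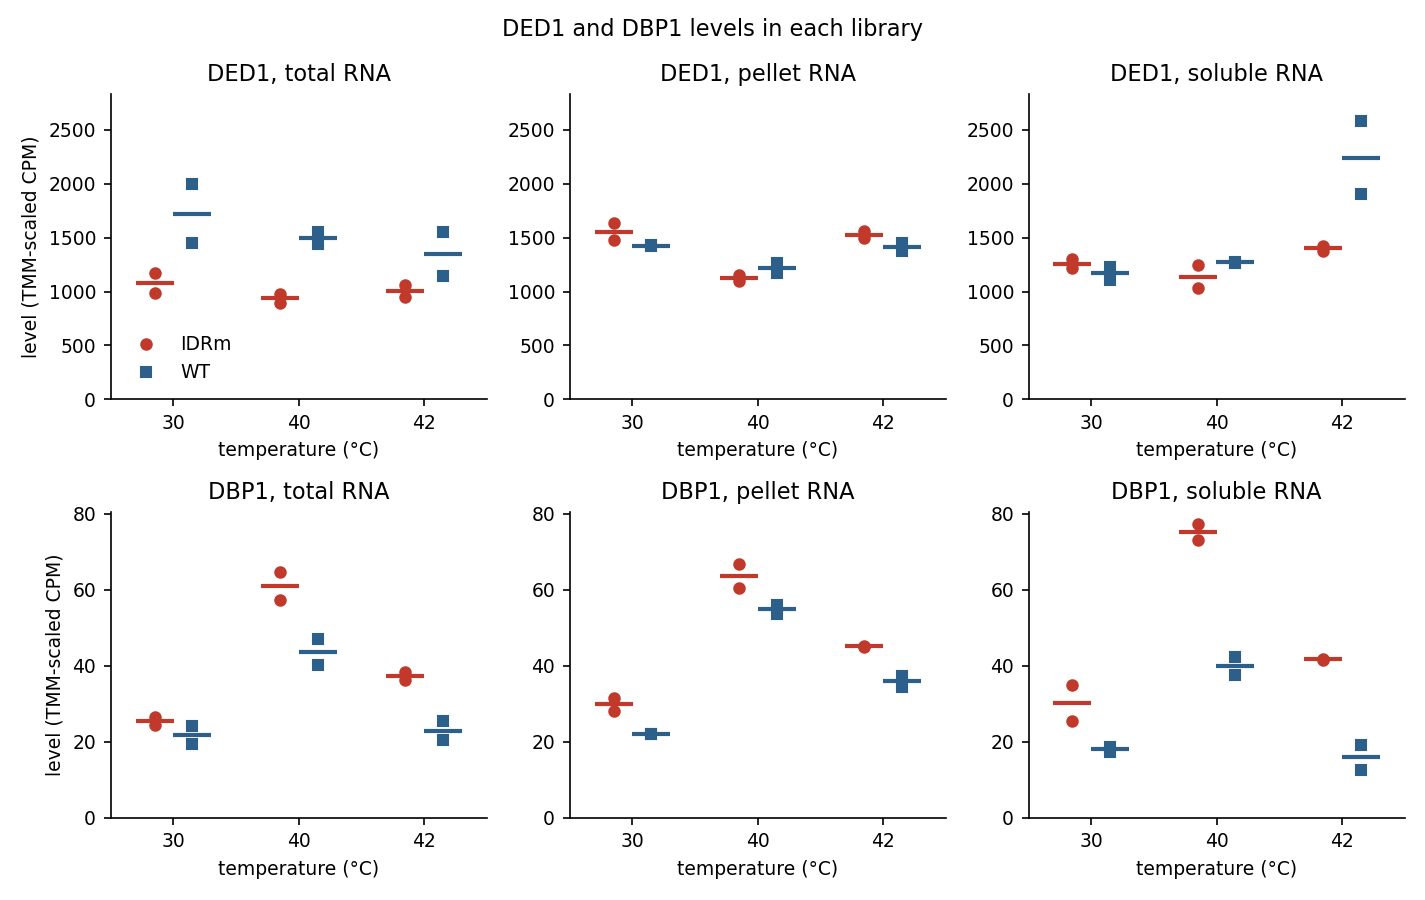
Levels of DED1 (top) and DBP1 (bottom) in TMM-scaled CPM, in total, pellet and soluble RNA at 30, 40 and 42 °C. Each circle is an IDRm library, each square a WT library, and each bar the mean of 2. DED1 lies higher in WT than in IDRm in total RNA and is highest in WT soluble RNA at 42 °C, while DBP1 peaks at 40 °C in every panel.

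DED1 was among the abundant transcripts in every group of total RNA, and lower in IDRm than in WT. At 30 °C it stood at 985 and 1174 CPM in IDRm, against 1993 and 1449 CPM in WT. At 40 °C it stood at 976 and 896 CPM in IDRm, against 1441 and 1556 CPM in WT. At both temperatures the 2 IDRm libraries lay below the 2 WT libraries, as the panels of levels by library show. At 42 °C the values were 949 and 1056 CPM in IDRm, against 1144 and 1555 CPM in WT, again without overlap. The log2 difference, IDRm minus WT, was -0.67 ± 0.17 at 30 °C (edgeR adjusted p = 0.017), where 4.99% of all genes were called lower. It was -0.68 ± 0.17 at 40 °C (edgeR adjusted p = 0.0187), where 4.11% of all genes were called lower. At 42 °C it was -0.43 ± 0.17 and was not called (edgeR adjusted p = 0.0764), in a comparison that called 11% of all genes lower. Leaving out replicate 1 of either group ended the call at 30 °C (-0.46 without the WT and -0.57 without the IDRm library), as did a fit of those 2 groups alone (-0.68), and leaving out any 1 of the 4 libraries ended that at 40 °C (-0.75 to -0.62). The difference at 42 °C was -0.63 and called if WT replicate 1 was left out, and -0.19 if WT replicate 2 was.

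Heat left DED1 without a called change in total RNA of either strain. In IDRm the log2 difference to 30 °C was -0.21 ± 0.17 at 40 °C (95% interval -0.56 to 0.15) and -0.11 ± 0.17 at 42 °C (-0.46 to 0.25). In WT it was -0.20 ± 0.17 at 40 °C (-0.56 to 0.16) and -0.35 ± 0.17 at 42 °C (-0.71 to 0.00). These comparisons called 70.4% and 64.8% of all genes in IDRm, and 69.7% and 61.4% in WT. They also depend on the scaling, since the WT fall at 42 °C was called with RLE factors or DESeq2 (-0.41), and the IDRm fall at 40 °C with library totals (-0.39) or once each library's trend with coding GC content was removed (-0.33). The WT values turn on single libraries. If replicate 2 of WT at 30 °C was left out, both were called (-0.44 at 40 °C and -0.60 at 42 °C), and if replicate 1 was, the values were 0.02 and -0.14. If replicate 2 of WT at 42 °C was left out, the difference at 42 °C was -0.63 and called. The strains did not differ by a called amount in these temperature effects, with strain differences of -0.01 ± 0.24 at 40 °C and 0.24 ± 0.24 at 42 °C (1.64% and 11.8% of all genes called). Without WT 30 °C total replicate 1 these were -0.23 and 0.03.

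DBP1 was a scarce transcript that rose with heat, most at 40 °C. In IDRm total RNA it stood at 26.6 and 24.5 CPM at 30 °C, 57.2 and 64.7 CPM at 40 °C, and 36.2 and 38.3 CPM at 42 °C. In WT total RNA it stood at 24.2 and 19.5 CPM at 30 °C, 47.2 and 40.3 CPM at 40 °C, and 20.4 and 25.5 CPM at 42 °C. The libraries at 40 °C lay above all others of the same strain, and in WT the libraries at 42 °C overlapped those at 30 °C. At 40 °C against 30 °C DBP1 rose by 1.26 ± 0.15 in IDRm (edgeR adjusted p = 1.22e-06) and by 1.00 ± 0.15 in WT (edgeR adjusted p = 2.11e-05). These comparisons called 37.8% of all genes higher in IDRm and 37.1% in WT, so a rise as such was common. At 42 °C against 30 °C it rose by 0.54 ± 0.15 in IDRm (edgeR adjusted p = 0.00501, 33.7% of all genes called higher), whereas the WT difference was 0.08 ± 0.16 and not called (0.20 without WT 30 °C total replicate 1). At 42 °C against 40 °C DBP1 fell in both strains, by 0.71 ± 0.15 in IDRm (21.1% of all genes called lower) and by 0.93 ± 0.15 in WT (22.3%). The test of the strain difference in the 42 °C effect gave 0.47 ± 0.22 and did not call it (edgeR adjusted p = 0.179, 11.8% of all genes called), although leaving out replicate 2 of WT at 30 °C gave a called 0.63 and leaving out replicate 1 an uncalled 0.34. The IDRm rise at 42 °C lost its call without IDRm 30 °C total replicate 2 (0.46).

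Between the strains DBP1 ran opposite to DED1 in total RNA. It was higher in IDRm than in WT at 40 °C by 0.48 ± 0.14 (edgeR adjusted p = 0.0416, 7.03% of all genes called higher) and at 42 °C by 0.70 ± 0.15 (edgeR adjusted p = 0.00462, 12.3% called higher). At 30 °C the difference was 0.23 ± 0.15 and not called (7.93% of all genes called higher, and 0.36 without WT replicate 1), with 26.6 and 24.5 CPM in IDRm lying just above 24.2 and 19.5 CPM in WT. At 42 °C the fold was 1.62, and the 2 IDRm libraries lay above both WT libraries. The call at 40 °C was lost without any 1 of its 4 libraries (0.36 to 0.59) and under upper-quartile scaling (0.45), and the call at 42 °C was lost without WT 42 °C total replicate 1 (0.55).

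A ratio of the 2 paralogs needs no scaling between libraries. Per kilobase of coding sequence, total RNA of IDRm held 2.64 and 2.05 DBP1 counts per 100 DED1 counts at 30 °C, 5.74 and 7.07 at 40 °C, and 3.73 and 3.55 at 42 °C. In WT the ratio was 1.19 and 1.32 at 30 °C, 3.21 and 2.53 at 40 °C, and 1.75 and 1.60 at 42 °C. At each temperature both IDRm libraries lay above both WT libraries, and the ratio was highest at 40 °C in each strain. DED1 was the major transcript of the pair by more than an order of magnitude in every library. In pellet RNA the ratio averaged 1.88, 5.52 and 2.89 in IDRm and 1.51, 4.41 and 2.49 in WT at 30, 40 and 42 °C. In soluble RNA it averaged 2.37, 6.51 and 2.92 in IDRm and 1.51, 3.08 and 0.733 in WT at the same temperatures. The lowest ratio of all 36 libraries, 0.475, was in WT 42 °C soluble replicate 2, which had 46 DBP1 counts, and replicate 1 of that group followed with 0.992.

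**Figure D2:**
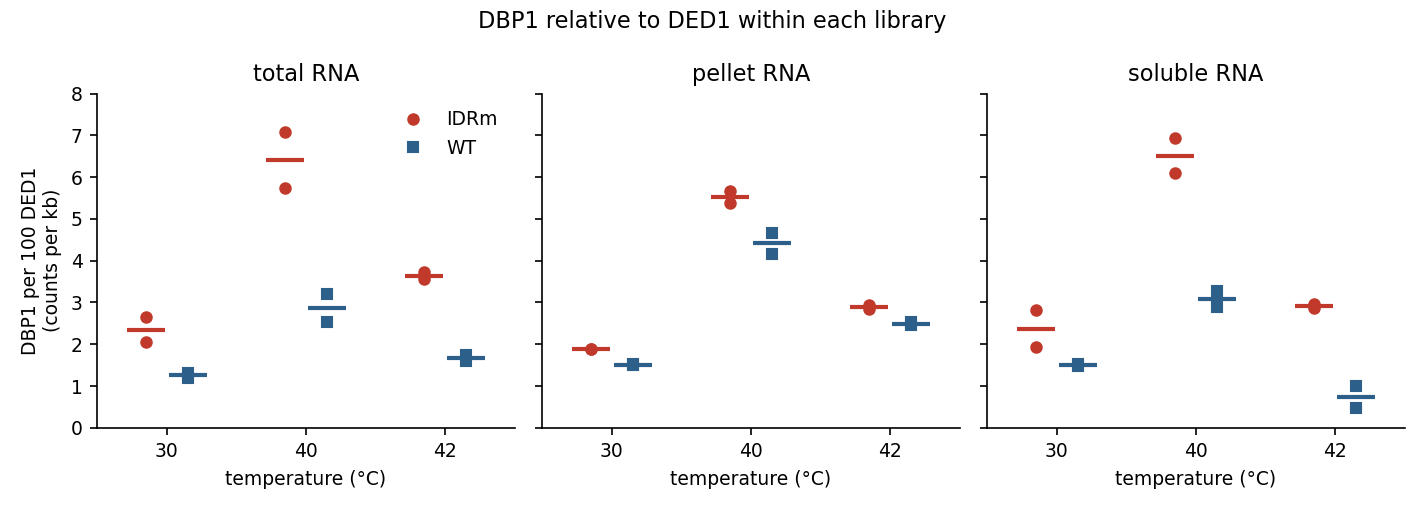
DBP1 counts per 100 DED1 counts, both per kilobase of coding sequence, in total, pellet and soluble RNA at 30, 40 and 42 °C. Circles are IDRm libraries, squares WT libraries and bars means of 2. The ratio peaks at 40 °C in all panels, and the strains are farthest apart in total and soluble RNA.

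The insoluble pellet and the soluble part were compared next, which asks whether a transcript is over- or under-represented in the pellet relative to the other transcripts. At 42 °C the paralogs parted in WT. DED1 stood at 1376 and 1447 CPM in the WT pellets, against 1901 and 2579 CPM in the WT soluble libraries. DBP1 stood at 34.5 and 37.3 CPM in the WT pellets, against 19.3 and 12.5 CPM in the WT soluble libraries. Thus DED1 was lower in the pellet by 0.67 ± 0.14 on the log2 scale (edgeR adjusted p = 0.000166, 36.7% of all genes called lower). DBP1 was higher in the pellet by 1.15 ± 0.17 (edgeR adjusted p = 5.23e-06, 42.4% of all genes called higher). Without WT 42 °C soluble replicate 2 both calls held, at -0.43 for DED1 and 0.90 for DBP1, and without replicate 1 the values were -0.87 and 1.52. With library totals in place of TMM factors the DED1 value was -0.17 and not called. That scaling moves the median of all genes in this comparison to 0.64, against 0.16 with TMM.

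In IDRm at 42 °C neither transcript had a called difference between the fractions. DED1 stood at 1498 and 1558 CPM in the IDRm pellets, against 1424 and 1378 CPM in the IDRm soluble libraries. DBP1 stood at 45.0 and 45.3 CPM in the IDRm pellets, against 41.8 and 41.7 CPM in the IDRm soluble libraries. The pellet minus soluble difference was 0.13 ± 0.13 for DED1 and 0.11 ± 0.15 for DBP1, in a comparison that called 78.7% of all genes in one direction or the other. These values move with the processing. Library totals gave a called 0.33 for DED1, removal of the GC trend gave called values of 0.42 for DED1 and 0.35 for DBP1, and upper-quartile scaling turned both to -0.09 and -0.10, not called.

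At 30 °C DED1 had near the same difference in both strains, 0.30 ± 0.14 in IDRm (edgeR adjusted p = 0.0524) and 0.29 ± 0.14 in WT (edgeR adjusted p = 0.0675). Neither was called, while each comparison called 68.2% of all genes. These 2 values are close to the threshold and were called with other scalings (RLE, library totals and upper quartile, 0.36 to 0.45). At 40 °C DED1 was level between the fractions, with 1100 and 1154 CPM in the IDRm pellets, against 1242 and 1034 CPM in the IDRm soluble libraries. The WT pellets held 1264 and 1174 CPM, against 1264 and 1277 CPM in the WT soluble libraries. The log2 differences were -0.01 ± 0.13 in IDRm and -0.06 ± 0.13 in WT (71.8% and 73.9% of all genes called). Their sign rests on the scaling, since library totals gave 0.25 and 0.29, both called, with the median of all genes at 0.28 and 0.40.

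DBP1 at 40 °C had a called difference between the fractions in WT and not in IDRm. The WT pellets held 53.8 and 55.9 CPM, against 42.2 and 37.7 CPM in the WT soluble libraries, a difference of 0.46 ± 0.15 (edgeR adjusted p = 0.0119, 37.9% of all genes called higher). In IDRm the pellets held 60.5 and 66.8 CPM, against 77.4 and 73.2 CPM in the soluble libraries, a difference of -0.24 ± 0.15 that was not called. The strain difference itself was -0.70 ± 0.21 and not called (edgeR adjusted p = 0.145, 1.11% of all genes called). The WT call at 40 °C was lost without WT 40 °C pellet replicate 2 (0.43) or WT 40 °C soluble replicate 2 (0.38). At 30 °C DBP1 gave -0.02 ± 0.16 in IDRm and 0.29 ± 0.17 in WT, neither called, and the WT value was called with RLE factors (0.45) and upper-quartile scaling (0.42).

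**Figure D3:**
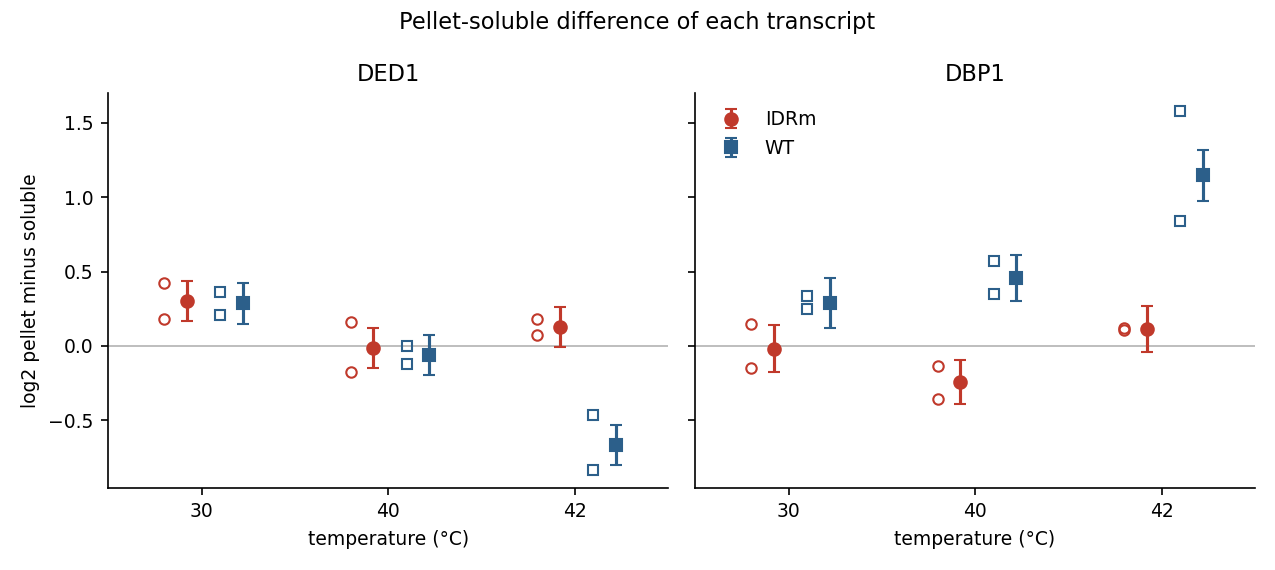
Pellet minus soluble log2 difference of DED1 and DBP1 at 30, 40 and 42 °C. Open symbols are the harvests, filled symbols the fitted values with bars of 1 standard error, circles IDRm and squares WT. At 42 °C the fitted WT values lie below 0 for DED1 (-0.67) and above 0 for DBP1 (1.15), while the fitted IDRm values stay within 0.13 of 0.

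The change of the pellet-soluble difference with temperature was tested as its own term. In WT, 42 °C against 30 °C, it shifted by -0.95 ± 0.19 for DED1 (edgeR adjusted p = 0.000664, 14.7% of all genes called lower) and by 0.86 ± 0.24 for DBP1 (edgeR adjusted p = 0.00845, 23.6% called higher). In IDRm the shifts were -0.18 ± 0.19 for DED1 and 0.13 ± 0.22 for DBP1, and neither was called (37.2% of all genes called). At 40 °C no shift of either gene was called, with values between -0.35 and 0.17 (21.9% of all genes called in IDRm and 21% in WT). With the GC trend removed the DED1 shift at 40 °C was called in both strains (-0.61 in IDRm and -0.57 in WT), and DESeq2 called it in WT (-0.51). The difference between the strains in the 42 °C shift was 0.77 ± 0.27 for DED1 (edgeR adjusted p = 0.278) and -0.72 ± 0.33 for DBP1 (edgeR adjusted p = 0.428). Neither was called, in a comparison that called 7 of 6141 genes (0.114%). The strains are therefore not shown to differ in this shift. Without WT 42 °C soluble replicate 1 both strain differences were called (0.97 and -1.10), and without replicate 2 they were 0.53 and -0.48. The WT shifts were called without either library, at -1.15 and 1.24 without replicate 1. Without replicate 2 they were -0.71 and 0.61, the latter close to the threshold. They were also called without WT 30 °C soluble replicate 2 (-1.02 and 0.81), while the DBP1 shift lost its call when only the compared groups were fitted (0.82).

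Set against each other at 42 °C alone, the strains did differ in the pellet-soluble difference of both genes. IDRm minus WT was 0.79 ± 0.19 for DED1 (edgeR adjusted p = 0.0155, 4.66% of all genes called higher) and -1.03 ± 0.23 for DBP1 (edgeR adjusted p = 0.00918, 2.3% called lower). At 30 °C the same comparison gave 0.02 ± 0.19 for DED1 and -0.31 ± 0.23 for DBP1, neither called (1.09% of all genes called). The DED1 call at 42 °C was lost without WT 42 °C pellet replicate 1 (0.75) or replicate 2 (0.82), and neither call held when only the 4 groups concerned were fitted (0.80 and -1.05). Without WT 42 °C soluble replicate 2 both held, at 0.55 and -0.79, but close to the threshold.

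The strains were also compared within each fraction. In the pellets no difference of either gene was called at any temperature: DED1 ranged from -0.11 to 0.13 and DBP1 from 0.21 to 0.44, in comparisons that called 2.96%, 3.84% and 8.73% of all genes at 30, 40 and 42 °C. In soluble RNA DBP1 was higher in IDRm at all 3 temperatures. At 30 °C it stood at 25.5 and 35.1 CPM in IDRm, against 17.4 and 18.6 CPM in WT, a difference of 0.75 ± 0.16 (edgeR adjusted p = 0.00699, 4.43% of all genes called higher). At 40 °C the difference was 0.91 ± 0.16 (edgeR adjusted p = 0.000524, 6.99% called higher). At 42 °C it was 1.36 ± 0.18 (edgeR adjusted p = 1.33e-05, 13.8% called higher), with 41.8 and 41.7 CPM in IDRm against 19.3 and 12.5 CPM in WT. The groups did not overlap at any of the temperatures. The call at 30 °C was lost without WT 30 °C soluble replicate 1 (0.71) or IDRm 30 °C soluble replicate 2 (0.50), and the value at 42 °C was 1.12 without WT 42 °C soluble replicate 2.

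Of the soluble DED1 differences between the strains the one at 42 °C was called, at -0.68 ± 0.14 (edgeR adjusted p = 0.000842, 18.9% of all genes called lower). It stood at 1424 and 1378 CPM in IDRm, against 1901 and 2579 CPM in WT. At 30 and 40 °C the soluble differences were 0.11 ± 0.13 and -0.16 ± 0.14, not called (6.81% and 11.2% of all genes called). Without WT 42 °C soluble replicate 2 the value at 42 °C was -0.44 and called. When only the 2 groups concerned were fitted, neither soluble call at 42 °C held (-0.62 for DED1 and 1.44 for DBP1). The lower DED1 level of IDRm in total RNA at 30 and 40 °C had no called counterpart in either fraction.

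Within a fraction, 7 of 8 temperature changes of DBP1 were called, and 2 of 8 of DED1. In the pellets DBP1 rose in both strains at 40 °C, by 1.09 ± 0.15 in IDRm and 1.32 ± 0.16 in WT, and at 42 °C, by 0.59 ± 0.15 in IDRm and 0.71 ± 0.16 in WT. Of all genes, 30% in IDRm and 29.1% in WT were called higher at 40 °C, and 26.1% and 25.3% at 42 °C. In soluble RNA it rose at 40 °C by 1.31 ± 0.16 in IDRm and 1.15 ± 0.17 in WT (32.2% and 30% called higher). At 42 °C soluble DBP1 rose by 0.46 ± 0.16 in IDRm (27.8% called higher) and differed by -0.15 ± 0.18 in WT, which was not called (59% of all genes called). The soluble IDRm call at 42 °C was lost without IDRm 30 °C soluble replicate 1 (0.25) and with library totals (0.38), and the soluble WT value was -0.53 and called without WT 42 °C soluble replicate 1 and 0.10 without replicate 2.

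Of the DED1 changes within a fraction, 1 was a rise and 1 a fall. In WT soluble RNA at 42 °C it rose by 0.94 ± 0.14 (edgeR adjusted p = 6.95e-06, 29% of all genes called higher), with 1901 and 2579 CPM at 42 °C against 1111 and 1227 CPM at 30 °C. Without WT 42 °C soluble replicate 2 that rise was 0.70 and still called. In the IDRm pellets at 40 °C DED1 fell by 0.47 ± 0.14 (edgeR adjusted p = 0.00581, 30% of all genes called lower), with 1100 and 1154 CPM at 40 °C against 1474 and 1638 CPM at 30 °C. That call was lost without IDRm 30 °C pellet replicate 2 (-0.39). Another 3 DED1 changes were called under other processing: the WT pellets at 40 °C with the GC trend removed (-0.62, against -0.23 ± 0.13), IDRm soluble RNA at 40 °C with library totals (-0.36, against -0.15 ± 0.14) and IDRm soluble RNA at 42 °C with upper-quartile scaling (0.47, against 0.15 ± 0.14).

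The share of each transcript in the pellet was estimated by modelling the total CPM of all genes as 1 weighted sum of their soluble and pellet CPM. For this model CPM were taken from library totals without TMM factors, and the model was not run with those factors. On that scale DED1 stood at 1647 and 1923 CPM in WT soluble RNA at 42 °C, against 1901 and 2579 CPM with TMM factors. The share of all mRNA, and whether a level lies outside both fractions, depend on that choice. The total, pellet and soluble libraries with the same number were taken as 1 harvest, which the labels do not state. Over all mRNA the pellet held 3.84% to 22.8% in IDRm and 18.1% to 37.2% in WT, with higher means at higher temperatures in both strains. For DED1 the share was 9.42% and 5.30% in IDRm and 28.4% and 22.4% in WT at 30 °C. At 40 °C it was 14.1% and 17.6% in IDRm and 30.0% and 25.4% in WT. At 42 °C it was 27.4% and 21.9% in IDRm and 28.0% and 33.5% in WT, and only in these 2 WT harvests was it below the share of all mRNA (29.4% and 37.2%). DBP1 had 27.8% and 21.2% in IDRm and 49.1% and 72.8% in WT at 42 °C. The higher WT share came from WT 42 °C soluble replicate 2, where the 46 counts of DBP1 were under the 50 asked of the genes that set the weights. The model assumes that no transcript is lost on the way into the fractions, and the 2 harvests per group were not tested.

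The same model showed where the measured total level of DED1 departed from its fractions. In WT the measured total level exceeded the modelled level by 0.92 and 0.38 on the log2 scale at 30 °C and by 0.29 and 0.40 at 40 °C. These values stood at percentiles 97.4, 91.1, 89.1 and 96.4 of all genes in the same harvest. At 42 °C the WT values were -0.49 and -0.27 (percentiles 3.6 and 22.8). In IDRm they were -0.29 and 0.04 at 30 °C, -0.28 and -0.19 at 40 °C, and -0.59 and -0.42 at 42 °C. The IDRm percentiles were 13.4 and 55.0 at 30 °C, 7.3 and 17.5 at 40 °C, and 3.3 and 7.6 at 42 °C. Measured DED1 in total RNA was below both fractions in 5 of 6 IDRm harvests and in both WT harvests at 42 °C, and above both in WT 30 °C replicate 1 and WT 40 °C replicate 2. A level outside the range of both fractions was common, at 23.9% to 55.2% of the genes in a harvest. Below both lay 8.86% to 25.4% of the genes in an IDRm harvest, and 7.29% and 7.55% in the WT harvests at 42 °C. Above both lay 16.0% in WT 30 °C replicate 1 and 9.65% in WT 40 °C replicate 2. DBP1 lay closer to its fractions in WT, with values of 0.56 and 0.21 at 30 °C, 0.15 and 0.00 at 40 °C, and -0.18 and 0.19 at 42 °C. In IDRm the DBP1 values were 0.17 and -0.40 at 30 °C, -0.34 and -0.11 at 40 °C, and -0.22 and -0.14 at 42 °C. Measured DBP1, like DED1, was below both fractions in 5 of 6 IDRm harvests. Between total RNA and the fractions the strain differences were not tested against each other.

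**Figure D4:**
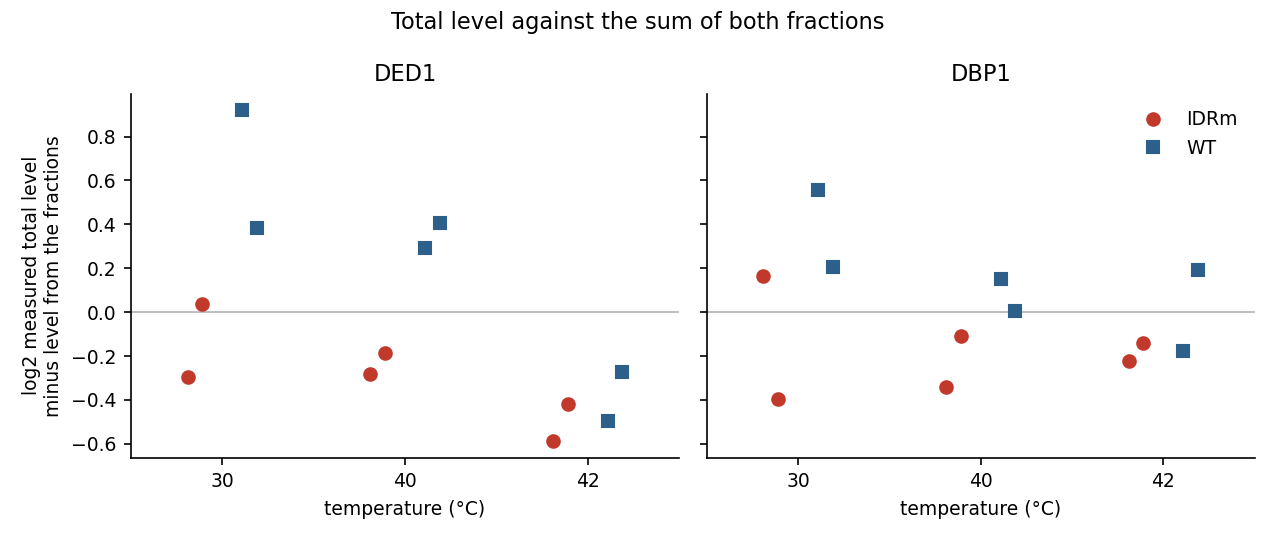
Measured total level minus the level modelled from both fractions, on the log2 scale, for DED1 and DBP1 at 30, 40 and 42 °C. Each circle is an IDRm harvest and each square a WT harvest. DED1 lies above 0 in the 4 WT harvests at 30 and 40 °C (0.29 to 0.92) and below 0 in all harvests at 42 °C.

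The paralogs were set beside 24 other DEAD-box helicases, all of which were measured. In total RNA at 40 °C against 30 °C, 21 of the 24 fell in IDRm and 21 in WT, with medians of -1.64 and -1.02, whereas 32.6% of all genes were called lower in each strain. Those counts ran from 20 to 21 over 9 other settings, and from 17 to 21 with 1 library left out. Helicases of ribosome assembly led the list: DBP7 (-4.30 ± 0.21), DBP3 (-3.59 ± 0.43) and DBP10 (-3.32 ± 0.17) were lowest in IDRm. DBP2, which works on mRNA export and quality control, fell by 3.26 ± 0.18 in IDRm. In WT the farthest were DBP7 (-3.97 ± 0.22), DBP10 (-2.91 ± 0.17), DBP3 (-2.76 ± 0.43) and DBP8 (-2.62 ± 0.16). DHH1, an activator of mRNA decapping, was the 1 other helicase called higher at 40 °C, by 0.95 ± 0.16 in IDRm and 1.02 ± 0.16 in WT. DBP1 shared its direction with DHH1 (1.26 and 1.00). By contrast, DED1, at -0.21 and -0.20, was not called in either direction.

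At 42 °C against 30 °C, 17 of the 24 other helicases fell and 1 rose in IDRm, against 7 that fell and 4 that rose in WT (31% and 28.1% of all genes called lower, 33.7% and 33.3% called higher). The median was -0.70 in IDRm and 0.00 in WT. The WT count of rises rests on single libraries, with 1 without WT 30 °C total replicate 1, 10 without replicate 2, and 3 and 2 without replicate 1 or 2 of WT at 42 °C. The strain difference in the 42 °C effect was called for 11 of the 24, all lower in IDRm (6.55% of all genes called lower), and for 7 to 13 over 9 other settings. With 1 library left out it ran from 2 (IDRm 30 °C total replicate 1) to 16 (WT 30 °C total replicate 2), with 3 and 7 without replicate 1 or 2 of IDRm at 42 °C, 6 and 7 without replicate 1 or 2 of WT at 42 °C, and 9 without WT 30 °C total replicate 1. The farthest of them were DBP4 (-1.59 ± 0.42), ROK1 (-1.54 ± 0.40), FAL1 (-1.53 ± 0.28) and DBP7 (-1.34 ± 0.25), which act in ribosome assembly. DED1 and DBP1 had strain differences of the opposite sign, 0.24 ± 0.24 and 0.47 ± 0.22, neither called. At 30 °C, 8 of the 24 were called higher in IDRm and 1 lower (7.93% and 4.99% of all genes called higher and lower). No helicase was called at 30 °C without replicate 1 of either strain or when those 2 groups were fitted alone, while 5 were called higher without IDRm replicate 2 and 18 without WT replicate 2. FAL1 (0.90 ± 0.20), DBP7 (0.80 ± 0.17) and DRS1 (0.76 ± 0.17) were higher, and TIF2 was lower (-0.60 ± 0.17). TIF2 and TIF1 encode the same helicase in near-identical copies, so their separate counts are uncertain.

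**Figure D5:**
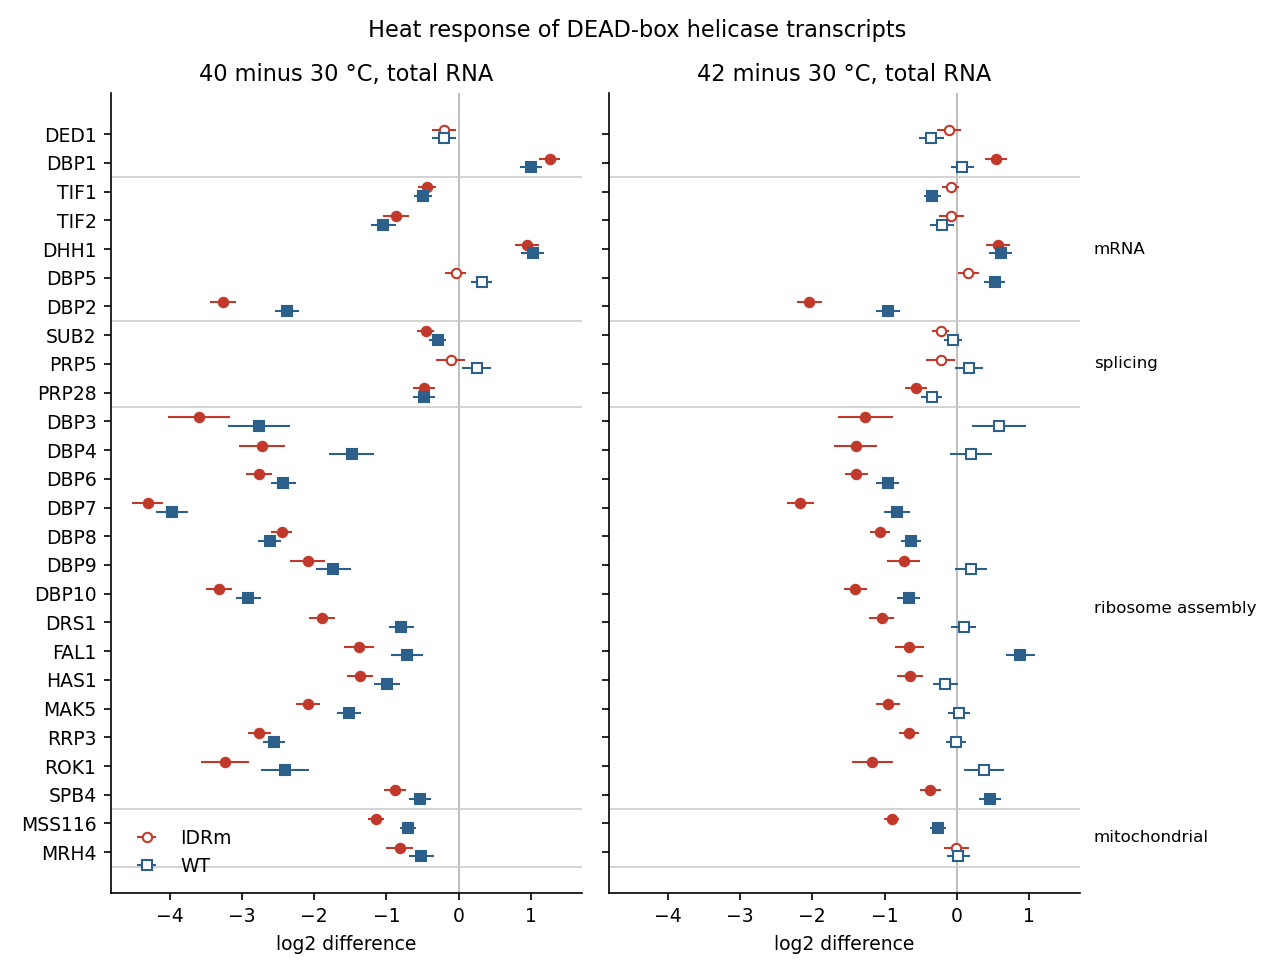
Log2 differences in total RNA at 40 °C (left) and 42 °C (right) against 30 °C for DED1, DBP1 and 24 other DEAD-box helicases, grouped by role. Red circles are IDRm and blue squares WT, bars are 1 standard error, and filled symbols passed the test. At 40 °C most helicases lie left of 0, DED1 near 0 and DBP1 and DHH1 right of 0.

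Of 11 initiation factors that work beside Ded1, 8 fell in IDRm and 7 in WT at 40 °C (32.6% of all genes called lower in each), and none was called higher, although upper-quartile scaling called 1 higher in each strain. TIF5, which acts in start codon selection, fell by 2.26 ± 0.15 in IDRm and by 2.35 ± 0.15 in WT. TIF4631, the scaffold of the cap-binding complex, fell by 1.79 ± 0.11 in IDRm and by 1.82 ± 0.11 in WT. The cap-binding protein CDC33 fell by 1.48 ± 0.12 in IDRm and by 1.41 ± 0.12 in WT. PAB1, the poly(A)-binding protein, fell by 1.70 ± 0.29 in IDRm and by 1.42 ± 0.28 in WT. Not called in either strain were the scaffold TIF4632 (0.24 ± 0.15 in IDRm and 0.08 ± 0.15 in WT), the start codon factor TIF11 (0.05 ± 0.11 and 0.21 ± 0.11) and GLE1, an mRNA export factor (-0.19 ± 0.16 and -0.10 ± 0.16).

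Per kilobase of coding sequence, DED1 ranked between 149 and 284 of 6014 annotated genes in total RNA. Its highest mean was 948 CPM per kb in WT at 30 °C and its lowest 516 CPM per kb in IDRm at 40 °C. DBP1 ranked between 3381 and 5016, with a highest mean of 32.9 CPM per kb in IDRm at 40 °C and a lowest of 11.8 CPM per kb in WT at 30 °C. In the order of DED1 means in total RNA, the 3 WT groups came before the 3 IDRm groups, and neighbours in that order overlapped in every case. For DBP1 the order was IDRm 40 °C, WT 40 °C and IDRm 42 °C, each apart from the next, followed by IDRm 30 °C, WT 42 °C and WT 30 °C, which overlapped their neighbours. In the fractions the WT soluble group at 42 °C stood first of 12 for DED1 and last of 12 for DBP1.

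The genes whose levels ran most like DBP1 over the 36 libraries were YPS6, a cell surface protease (Pearson r = 0.941), YPL247C (0.935), NTH1, which degrades trehalose (0.932), COQ6, which acts in ubiquinone synthesis (0.929), and GSY2, a glycogen synthase (0.917). For DED1 the closest were the glycolytic enzyme PFK2 (0.672), FAA4, which activates fatty acids (0.666), the threonine synthase THR4 (0.647), the tRNA synthetase subunit FRS2 (0.637) and the sterol desaturase ERG3 (0.604). DED1 and DBP1 themselves had r = -0.447. These are descriptions over 3946 genes with at least 32 CPM on average, and the libraries share cultures, strains and fractions. For these correlations the 36 libraries were scaled together with 1 set of TMM factors.

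The neighbours of the paralogs were looked at because strand was not stated for the counting. Of the genes looked at, the nearest to DED1 are HIS3, 302 bases upstream on the same strand, and GEP3, 838 bases beyond its end. HIS3 held 17.3 ± 1.96 CPM (SD, n = 2) in WT total RNA at 30 °C, far under DED1. DBP1 is followed after 123 bases on its own strand by the small open reading frame YPL119C-A, which gathered between 20.1 and 51.1 counts per 100 DBP1 counts in each library. MRP51 starts 363 bases from DBP1 on the opposite strand, VPS30 ends 666 bases away on that strand, and none of these genes overlaps DED1 or DBP1. In WT total RNA at 30 and 40 °C MRP51 averaged 131 and 142 CPM, and VPS30 21.5 and 55.8 CPM. DBP1 averaged 21.9 and 43.7 CPM there. In IDRm the means were 168 and 168 CPM, 22.4 and 50.5 CPM, and 25.5 and 61.0 CPM in the same order. Whether reads from these neighbours were counted for DBP1 was not tested. Counted features without a match in the annotation were not placed, so an overlap by one of them was not looked for (6014 of 6697 matched). In the window of 250 bases before and 50 bases after the start codon, searched on both strands, DBP1 held 1 stress response element (AGGGG) at position -30, and DED1 none, while 21.6% of 5988 such windows hold at least 1. Neither window held the inner repeat of a heat shock element (22.6% of windows). DED1 had 3 overlapping or nearby runs of at least 8 T or A, between -123 and -100, a feature of 32.1% of windows, and DBP1 had none.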

How the data were processed

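RNA was sequenced from 36 yeast libraries after depletion of ribosomal RNA, per the labels' protocols. Per the submitters' processing notes, bcl2fastq 2.19.1, STAR 2.5.2b and the R64 genome were used. The deposited values are raw counts per gene. Which tool counted them, on which strand and with which annotation is not given in the sources used here. Of 6697 genes, 6014 matched the R64 annotation by locus tag.

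The 12 total libraries (6090 genes, 6 residual degrees of freedom) and the 24 pellet and soluble libraries (6141 genes, 12) were fitted apart with 1 term per group, using the edgeR 4.0.16 quasi-likelihood test (R 4.3.3), TMM factors, filterByExpr at a minimum count of 10 and Benjamini-Hochberg adjustment within each of 11 and 29 contrasts. Alternatives were RLE, library totals, upper quartile, no filter, DESeq2 1.42.0, a replicate block, fits of the compared groups alone, each library left out and, chosen after seeing the data, removal of a GC trend and, for the gene lists, fits of the compared groups alone and each library left out. The pellet share used CPM from library totals and genes with at least 50 counts in the 3 libraries of a harvest. The edgeR test, for some of the contrasts, and the pellet share model were tested on simulated data. The other steps and the alternatives were not, nor were TMM factors where most genes change. The simulated pellet shares did not go as low as those of all mRNA in IDRm at 30 and 40 °C. Noise was added there to the total level and not to the fractions. The 2 genes, the lists and the named-gene rule (up to 4 called list members with the largest change in a contrast, the 5 genes most alike each member, the neighbours, HSP104 and SSA4) were chosen with earlier results of these data known. Sequences came from the R64 genome. Precision is limited by 2 cultures per strain.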

Additional observations from a re-analysis of the deposited data

Results flagged for a closer look

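A group of 4 results for the pellet-soluble difference passed a test that one condition's difference is unlike another's. In WT the DED1 difference shifted by -0.95 between 30 and 42 °C, and the DBP1 difference by 0.86. IDRm minus WT at 42 °C was 0.79 for DED1 and -1.03 for DBP1. All 4 rest in part on WT 42 °C soluble replicate 2, the shallowest library, which held 0.151% of counts on mitochondrially encoded genes. Without it the values were -0.71, 0.61, 0.55 and -0.79. Each was still called, but all except the DED1 shift lay close to the threshold of 0.05. The part of that library in the size of these results was not tested further. Fits of the compared groups alone lost the call of the DBP1 shift (0.82) and of both strain differences (0.80 for DED1 and -1.05 for DBP1). The DED1 strain call was also lost without WT 42 °C pellet replicate 1 (0.75) or replicate 2 (0.82).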

How the results depend on the processing

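Of 80 differences for DED1 and DBP1, 29 were called, and 14 of them (2 of 8 for DED1, 12 of 21 for DBP1) kept direction and call under all 9 alternatives and with each library left out. Under the 9 alternatives 664 of 720 values kept direction and side of the threshold, 10 lost a call, 44 gained one and 2 changed sign with a call, and with a library left out 411 of 440 did, with 21 losses and 8 gains. Another 43 and 28 values changed sign without a call on either side.

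With library totals the pellet minus soluble difference of DED1 at 40 °C turned to 0.25 in IDRm and 0.29 in WT, that in IDRm became called at 30 °C (0.39) and 42 °C (0.33), that in WT at 30 °C (0.43), and that in WT at 42 °C lost its call (-0.17), while DED1 in IDRm total RNA at 40 °C became called (-0.39). With RLE factors or DESeq2 DED1 in pellet minus soluble at 30 °C was called in IDRm (0.43) and WT (0.45), as was DBP1 in WT (0.45), and DED1 in WT total RNA at 42 °C (-0.41). DESeq2 also called the WT shift of DED1 at 40 °C (-0.51) and the pellet-soluble strain difference of DBP1 at 40 °C (-0.73). Upper-quartile scaling called the fraction difference at 30 °C of DED1 in IDRm (0.36) and WT (0.41) and of DBP1 in WT (0.42), called DBP1 in IDRm at 40 °C (-0.34), and lost the strain call of DBP1 in total RNA at 40 °C (0.45).

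With the GC trend removed, with or without the replicate block, the fraction difference was called for DED1 at 30 °C in IDRm (0.55) and WT (0.42) and at 42 °C in IDRm (0.42), and for DBP1 in WT at 30 °C (0.54) and IDRm at 42 °C (0.35), as were the DED1 shifts at 40 °C (-0.61 in IDRm and -0.57 in WT). The strain difference of DED1 in total RNA at 42 °C was called too (-0.57, and -0.56 with the replicate block), and without the block DED1 in IDRm total RNA at 40 °C (-0.33). Fits of the compared groups alone lost the strain call of DED1 in total RNA at 30 °C (-0.68), both soluble strain calls at 42 °C (-0.62 and 1.44), both pellet-soluble strain calls at 42 °C (0.80 and -1.05) and the WT shift of DBP1 (0.82). They gained DED1 in pellet minus soluble at 30 °C (0.29 in IDRm and 0.30 in WT), and for DBP1 the same difference in IDRm at 40 °C (-0.24), its strain difference at 40 °C (-0.70) and the pellet strain difference at 30 °C (0.41). The cause of these changes was not tested. That fit called 80 genes between the strains in total RNA at 30 °C, against 787 in the joint fit.

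The replicate block alone lost 1 call, DBP1 between the strains in total RNA at 40 °C (0.48), and changed no other. Same-numbered libraries of a strain deviated from their group means with correlations of -0.34 to 0.05 in total RNA. In the fractions these ran from -0.57 to 0.74, with 12 of 30 pairs of groups over 0.1, so some of those libraries did deviate together. The main tests do not treat the numbers as pairs, and a block that joins the pellet and soluble libraries of a harvest was not fitted. The pellet shares and modelled totals do combine same-numbered libraries.

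With each library left out, IDRm minus WT in total RNA ran from -0.90 to -0.46 for DED1 at 30 °C, -0.75 to -0.62 at 40 °C and -0.63 to -0.19 at 42 °C, and for DBP1 from 0.36 to 0.59 at 40 °C and 0.55 to 0.87 at 42 °C. The DED1 differences of WT total RNA ran from -0.44 to 0.016 at 40 °C and -0.63 to -0.14 at 42 °C, that of DBP1 in IDRm at 42 °C from 0.46 to 0.58, and its strain difference from 0.32 to 0.65. The strain difference of the shift at 42 °C ran from 0.53 to 0.97 for DED1 and -1.10 to -0.48 for DBP1, the pellet-soluble strain difference of DED1 at 42 °C from 0.55 to 0.99, the WT fraction difference of DBP1 at 40 °C from 0.38 to 0.54, and its soluble strain difference at 30 °C from 0.50 to 0.96. DBP1 had as few as 46 counts in a soluble library.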
